A study of Mus musculus with 9 samples.

Results

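Activator protein 1 (AP-1) and the immediate early factor EGR1 were examined in mouse osteosarcoma (OS) through 8 genes, taken by their symbols from the 55367 genes of the deposited table. They are the FOS family genes Fos, Fosb, Fosl1 and Fosl2, the JUN family genes Jun, Junb and Jund, and Egr1. RNA-Seq of whole OS tumors from genetically engineered mouse models (GEMMs) gave 9 libraries, 4 from p53-driven tumors and 5 from Myc-knockin tumors. The labels give the p53-driven tumors the genotype Col2.3-Cre/TrpP53fl/+ and the Myc-knockin tumors Cre with (LSL)-c-MycT58A, a Myc allele behind a Lox-Stop-Lox cassette, and p53fl/+. Both groups therefore share Cre, which the osteoblast promoter Col2.3 drives, and a floxed p53 allele, and they differ in the Cre-activated c-MycT58A allele. Mouse age, sex and tumor site are not in the labels, nor is it said whether each tumor came from a mouse of its own. The p values treat the 9 tumors as independent and could be too small if some tumors shared a mouse. Whole tumors hold cells besides the OS cells, and in such bulk RNA fewer cells of a type and less RNA per cell cannot be told apart.

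AP-1 is a dimer of basic leucine zipper (bZIP) proteins in which a FOS protein pairs with a JUN protein, or JUN proteins pair with each other, and it binds a short DNA element in the control regions of its targets. Fos, Fosb, Jun, Junb and Egr1 are immediate early genes, transcribed within minutes of a growth factor, cytokine or stress signal through the MAP kinases and serum response factor, whereas Jund and Fosl2 are usually expressed more steadily. In bone, FOS proteins are needed for osteoclast formation, FOSL2 acts in both osteoblasts and osteoclasts, and excess FOS in the osteoblast lineage is a known cause of OS in mice.

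Of the 8 genes, only Fosl2 passed the test between the genotypes, with a lower level in the Myc-knockin tumors. Levels are CPM, counts relative to library sizes normalized by edgeR's TMM method. The test was edgeR's quasi-likelihood test on the deposited counts with Benjamini-Hochberg adjustment over 15365 genes, and a call needed an adjusted p under 0.05 with a fold change over 1.5. Tested members numbered 7, since Fosl1 had too few counts. The 1 called member of these 7 stands beside 5.27% of all genes tested that were called in either direction and 3.00% that were called lower. Over the 7, the median log2 fold change of Myc-knockin over p53-driven tumors was 0.41, with 5 values above 0 and 2 below, and over all genes tested it was 0.14. The tally turned to 3 above and 4 below without M408, with a median of -0.31. It did the same without F187, M351, M408 and M9, with a median of -0.59. Under limma-voom, run here and below with a quality weight for each library, it was 2 above and 5 below, with a median of -0.33.

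The libraries differed in ways that bear on these genes. Total counts ran from 2716322 to 17073285, and counts outside the satellite-repeat genes from 671790 in M9 to 17073254 in M624. Library sizes after TMM scaling ran from 1255195 in M9 to 26245566 in M624. On that scale 3 counts, taken as the floor of detection, came to between 0.114 and 2.39 CPM, an amount that covers counting error only. Satellite-repeat genes took 44.3% of the counts in F187, 67.9% in M351, 23.2% in M408 and 81.0% in M9, and at most 0.0242% in the other 5 libraries. Genomic background, estimated from 1822 chemosensory receptor genes, ranged from 0.0369 to 1.24 counts per kilobase of exon and was highest in M9 and M351. In M624 and M664 the small nuclear RNA Rn7sk stood at 5.33 and 9.32 CPM once the satellite genes were set aside, and at 8858 CPM or more in each of the other 7. Myc itself ran from 144 to 1045 CPM in the Myc-knockin tumors and from 43.5 to 67.1 CPM in the p53-driven tumors, without overlap.

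The stretches just before the transcription starts of Fos and Fosl2 are shown because these are the 2 tested members with log2 fold changes below 0, and that of Jun because its product pairs with theirs. Each run holds the 250 bases before the start and the first 50 bases after it, from RefSeq on GRCm38.p6, in the direction of the gene, and capitals mark the motifs found. Fos lies on the plus strand at chr12:85473640-85473939, Fosl2 on the plus strand at chr5:32136222-32136521 and Jun on the minus strand at chr4:95052173-95052472.
Fos: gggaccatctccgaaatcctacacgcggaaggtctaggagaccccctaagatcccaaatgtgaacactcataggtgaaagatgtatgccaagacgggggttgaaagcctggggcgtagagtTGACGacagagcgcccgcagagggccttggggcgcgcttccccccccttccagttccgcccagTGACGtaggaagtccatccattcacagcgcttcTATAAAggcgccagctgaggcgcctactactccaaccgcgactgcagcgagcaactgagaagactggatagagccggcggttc
Fosl2: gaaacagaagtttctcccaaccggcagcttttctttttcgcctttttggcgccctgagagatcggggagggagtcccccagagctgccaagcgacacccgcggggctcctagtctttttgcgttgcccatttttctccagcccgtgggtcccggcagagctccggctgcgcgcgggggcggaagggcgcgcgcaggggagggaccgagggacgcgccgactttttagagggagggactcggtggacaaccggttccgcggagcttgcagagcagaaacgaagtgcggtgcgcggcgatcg
Jun: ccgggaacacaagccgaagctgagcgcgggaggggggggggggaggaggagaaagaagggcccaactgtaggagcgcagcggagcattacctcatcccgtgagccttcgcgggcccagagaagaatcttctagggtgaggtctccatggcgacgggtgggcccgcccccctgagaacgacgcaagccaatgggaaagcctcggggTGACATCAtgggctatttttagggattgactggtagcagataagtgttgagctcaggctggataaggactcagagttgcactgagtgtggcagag

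Both strands were searched for the AP-1 site TGACTCA, the cAMP response element TGACGTCA, the CArG box bound by serum response factor, and TATAAA, and then, after the windows had been seen, for TGACG, which opens the cAMP response element, and for TGACATCA, a variant of the AP-1 site. In the Fos window TGACG stood at -129 to -125 and at -66 to -62 from the start, and TATAAA at -33 to -28. The Jun window held TGACATCA at -45 to -38. None of these letters was found in the Fosl2 window, whose RefSeq start lies inside the gene as GENCODE places it. Among all 32851 windows of this length, TGACG was present in 20.81%, TATAAA in 13.62%, TGACTCA in 5.2%, TGACATCA in 3.62%, TGACGTCA in 1.79% and the CArG box in 1.63%. Windows of 6 of the 8 members were searched, and Fosl1 and Egr1 were not among them. The matches describe the letters and show no binding.

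**Figure D1:**
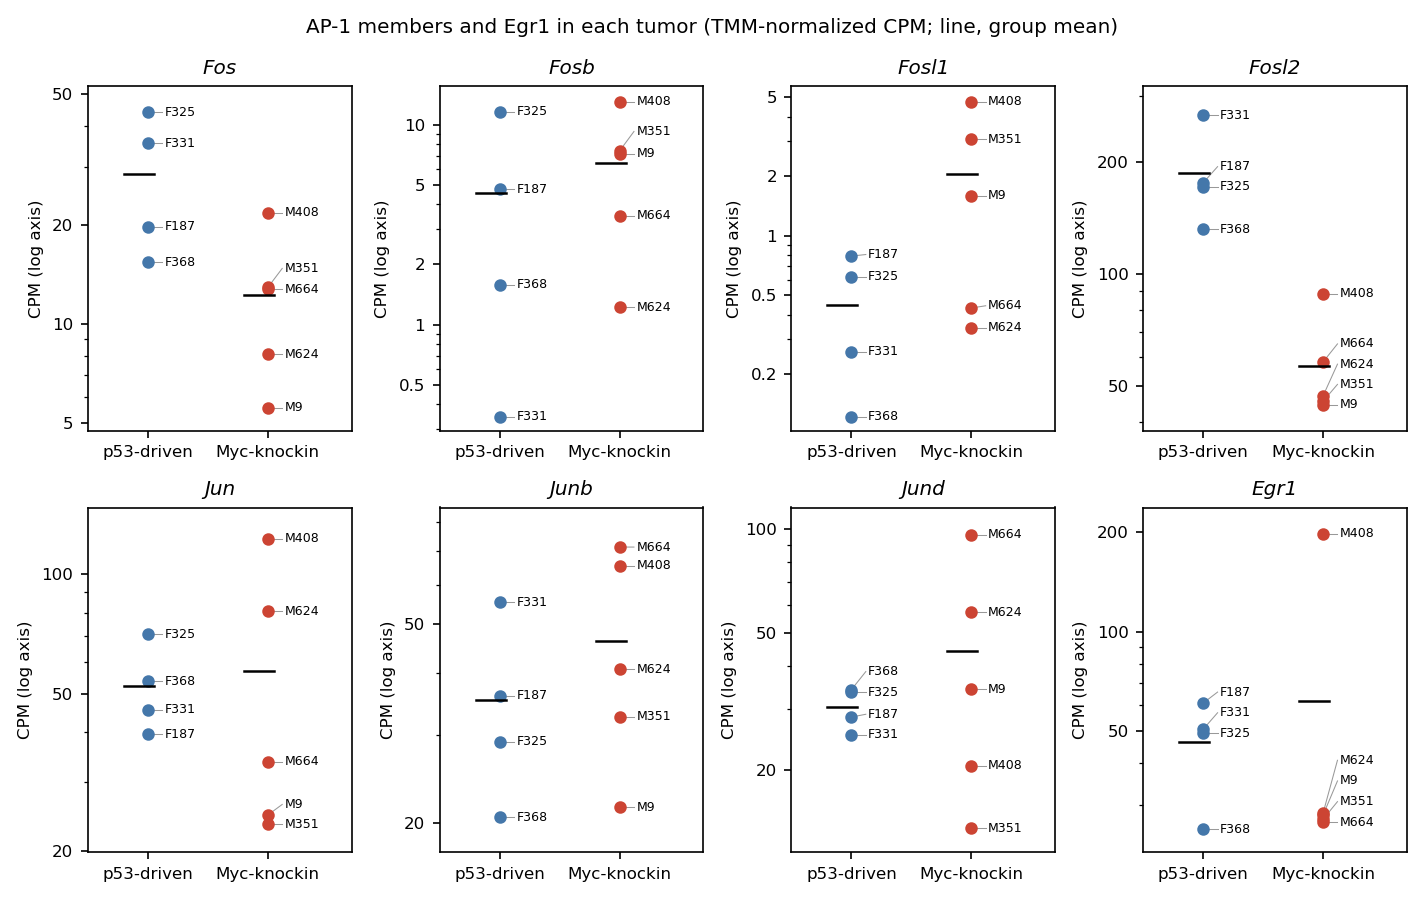
TMM-normalized CPM of the 8 genes in each of the 9 tumors, on a log axis that is scaled to each gene, with blue points for p53-driven and red points for Myc-knockin tumors and a black line at each group's mean. Fosl2 is the only panel in which the groups do not overlap, and M408 stands far above the other Myc-knockin tumors for Egr1.

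Fosl2 encodes FOSL2 (FRA-2), a FOS family partner of the JUN proteins. The table lists it as ENSMUSG00000029135, on the plus strand of mm10 chromosome 5 from 32135801 to 32157842, with 9680 bases of exon. It had 176 CPM in F187, 171 in F325, 267 in F331 and 132 in F368, and in the Myc-knockin tumors 45.6 CPM in M351, 88.6 in M408, 44.6 in M9, 47.1 in M624 and 58.1 in M664. Every p53-driven tumor was above every Myc-knockin tumor, with F331 the highest of the 9 and M408 the highest of its group. Fosl2 averaged 56.8 ± 18.6 CPM (SD, n = 5) in Myc-knockin and 186 ± 56.9 CPM (SD, n = 4) in p53-driven tumors. Between the genotypes its log2 fold change was -1.71 (SE 0.31, 95% confidence interval -2.39 to -1.03), with an adjusted p of 0.0223 from edgeR. A two-sided exact permutation test over all arrangements of the tumors gave p = 0.0159, the smallest it allows. Groups did not overlap for 13.0% of all genes tested, with the lower level in the Myc-knockin tumors for 7.54% and the higher for 5.41%.

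The Fosl2 difference was measured again in subsets of the libraries. Without F187, M351, M408 and M9, the libraries rich in satellite counts, it was -1.84 (edgeR adjusted p = 0.0223), and Jund was called as well in this fit of the remaining 5 libraries, in which 27.9% of all genes tested were called. Without M624 and M664 it was -1.56 and no longer called (edgeR adjusted p = 0.0526). The call was also lost without F325, F331 or F368, with edgeR adjusted p values of 0.0709, 0.0782 and 0.0674, while over all single omissions the values ran from -1.90 to -1.49. In those same fits the whole table gave 8, 6 and 5 calls in place of 809. Scaling by library size alone gave -1.73 without a call (edgeR adjusted p = 0.201) and moved the median of all genes from 0.14 to 0.03, so that Fosl2 stood at -1.76 relative to that median, against -1.85 with TMM.

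Fos, the founding member of its family and the best known immediate early gene, was listed as ENSMUSG00000021250 on the plus strand of chromosome 12 from 85473890 to 85477273. The p53-driven tumors had 19.7 CPM in F187, 44.1 in F325, 35.5 in F331 and 15.4 in F368, and the Myc-knockin tumors 12.9 in M351, 21.8 in M408, 5.58 in M9, 8.12 in M624 and 12.8 in M664. The groups overlapped through M408, which was above F187 and F368, and the other 4 Myc-knockin tumors were below all p53-driven tumors. Fos averaged 12.2 ± 6.19 CPM (SD, n = 5) in Myc-knockin and 28.7 ± 13.4 CPM (SD, n = 4) in p53-driven tumors. Its log2 fold change was -1.21 (SE 0.43, 95% confidence interval -2.17 to -0.26), and its edgeR adjusted p of 0.107 was not past the threshold, although the unadjusted p was 0.0171 and the two-sided exact permutation p 0.0476. The 7 counts of Fos in M9 are a thin basis, since the background estimate there was 41.9% of them. Over the 21 alternatives that could be run, Fos ran from -1.58 to -0.93 and was never called.

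Fosb encodes FOSB, and its truncated form is known from long-term stimulation of neurons and from bone. It lies on the minus strand of chromosome 7 from 19302696 to 19310051. It stood at 4.74 CPM in F187, 11.6 in F325, 0.346 in F331 and 1.58 in F368, and at 7.39 CPM in M351, 13.0 in M408, 7.17 in M9, 1.22 in M624 and 3.5 in M664. The ranges of the groups lay almost on each other, and the p53-driven range from F331 to F325 was the wider on a fold scale. Fosb had a log2 fold change of 0.47 (SE 0.90, 95% confidence interval -1.51 to 2.46, edgeR adjusted p = 0.775). The background estimate made up 37.1% of the Fosb counts in F187, 58.4% in M351 and 86.3% in M9. Single omissions moved the value from 0.011 without M408 to 1.58 without F325, and leaving out the 4 libraries rich in satellite counts gave -0.90 (edgeR adjusted p = 0.638).

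Fosl1 encodes FOSL1 (FRA-1), often raised in invasive tumors. It lies on the plus strand of chromosome 19 from 5447547 to 5455946. Counts were 2 in F187, 8 in F325, 3 in F331, 1 in F368, 5 in M351, 26 in M408, 2 in M9, 9 in M624 and 10 in M664. On the CPM scale this was 0.79 in F187, 0.622 in F325, 0.259 in F331 and 0.122 in F368. In the Myc-knockin tumors it was 3.08 in M351, 4.76 in M408, 1.59 in M9, 0.343 in M624 and 0.432 in M664. The groups overlapped, 4 libraries were at or under 3 counts, and no fold change is given (two-sided exact permutation test on log2 CPM, p = 0.127). Of its 2033 exon bases, 1163 are shared with Ccdc85b on the opposite strand, and the background estimate was 72.5% of the count in F187 and 126.5% of it in M9.

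**Figure D2:**
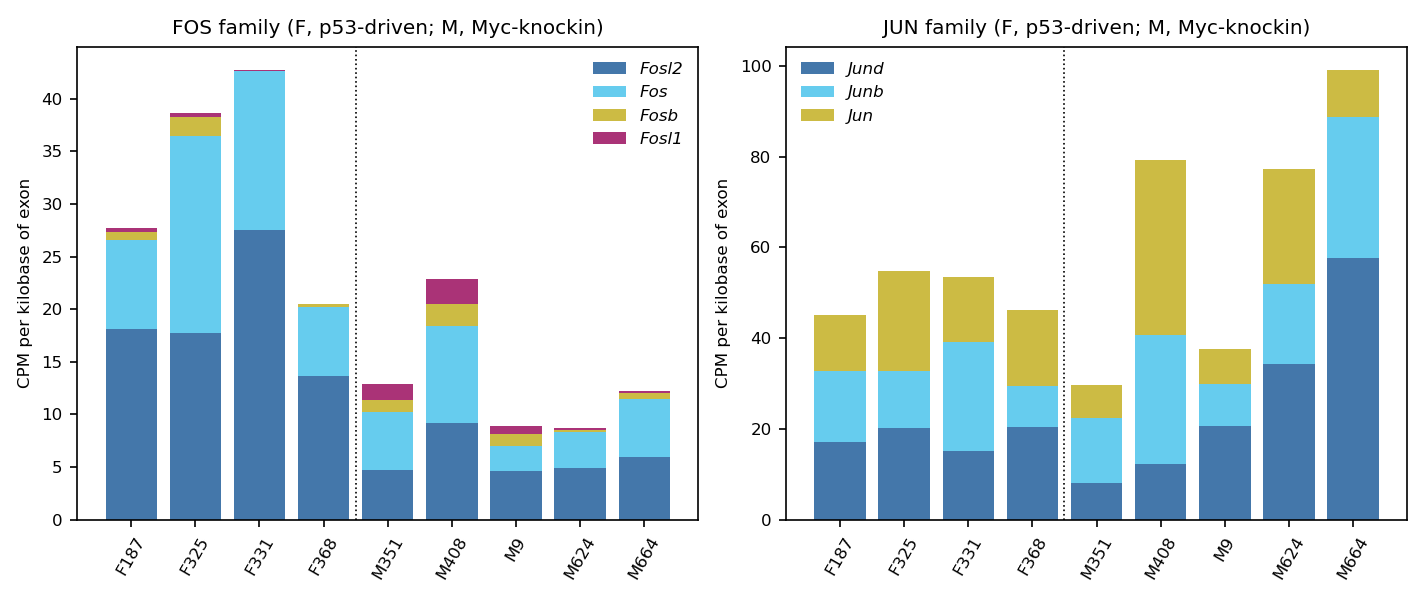
FOS family (left) and JUN family (right) in each tumor as stacked bars of CPM per kilobase of exon, with p53-driven tumors (F) left of the dotted line and Myc-knockin tumors (M) right of it. The FOS stack spans 20.5 to 42.8 in the p53-driven and 8.68 to 22.9 in the Myc-knockin tumors, and the JUN stack 45.1 to 54.9 and 29.6 to 99.2.

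To compare levels between genes, CPM was divided by the exon length in kilobases. On this scale the FOS family summed to 32.4 ± 10.2 (SD, n = 4) in p53-driven and 13.1 ± 5.77 (SD, n = 5) in Myc-knockin tumors, and only M408, at 22.9, reached the p53-driven range, above F368 at 20.5. Fosl2 and Fos together made up 94.4 to 99.6% of it in the p53-driven tumors, 95.8% in M624 and 93.7% in M664, and 79.1% in M351, 80.6% in M408 and 78.3% in M9. Fosl2 took 60.6 ± 9.85% of the family sum in p53-driven and 46.7 ± 8.17% in Myc-knockin tumors, ranges that overlapped. The share of Fos was 36.5 ± 8.28% and 38.8 ± 7.07%. Fosb took 2.23 ± 2.03% and 7.60 ± 4.20%, and Fosl1 0.696 ± 0.526% and 6.89 ± 4.73%, in the same order of groups. The Fosl1 share did not overlap between the groups, from 0.291 to 1.40% against 1.74 to 11.7%, but it rests on the few counts given above and on a sum that itself differed, and it was not tested.

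Jun, the classical partner of FOS, is a single-exon gene on the minus strand of chromosome 4 from 95049034 to 95052222. In the p53-driven tumors it had 39.5 CPM in F187, 70.5 in F325, 45.5 in F331 and 53.7 in F368, and in the Myc-knockin tumors 23.4 in M351, 123 in M408, 24.7 in M9, 80.7 in M624 and 33.7 in M664. M408 and M624 were above all p53-driven tumors and the other 3 Myc-knockin tumors below them, so that the Myc-knockin group lay on both sides. The mean was 57.0 ± 43.6 CPM (SD, n = 5) against 52.3 ± 13.5 CPM (SD, n = 4). Jun had a log2 fold change of 0.14 (SE 0.49, 95% confidence interval -0.94 to 1.21, edgeR adjusted p = 0.890), and it was -0.31 without M408.

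Junb, which competes with JUN for partners and often restrains it, lies on the minus strand of chromosome 8 from 84974484 to 84978718. Its levels were 35.9 CPM in F187, 29.1 in F325, 55.4 in F331 and 20.5 in F368, and 32.6 in M351, 65.4 in M408, 21.5 in M9, 40.6 in M624 and 71.3 in M664. M664 and M408 were above every p53-driven tumor, and the remaining values were interleaved. Of the tested members Junb had the smallest spread, with a range of 3.47-fold over the 9 tumors. Between the genotypes Junb had a log2 fold change of 0.41 (SE 0.40, 95% confidence interval -0.47 to 1.29, edgeR adjusted p = 0.546). Its exons share 173 bases with Prdx2 on the opposite strand, which had 11909 counts over the 9 libraries.

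Jund, the steadily expressed JUN gene, is a single-exon gene on the plus strand of chromosome 8 from 70698949 to 70700616. It was even in the p53-driven tumors, with 28.4 CPM in F187, 33.6 in F325, 25.3 in F331 and 34.2 in F368. The Myc-knockin tumors ran from 13.5 in M351 through 20.5 in M408, 34.3 in M9 and 57.2 in M624 to 96.2 in M664. Their SD was 33.4 CPM (n = 5) against 4.27 CPM (n = 4), and they lay on both sides of the p53-driven tumors. Between the genotypes Jund had a log2 fold change of 0.56 (SE 0.49, 95% confidence interval -0.52 to 1.65, edgeR adjusted p = 0.494). This value depended on which libraries entered. M624 and M664 were the highest of all 9, without them the value was -0.38 (edgeR adjusted p = 0.464), and without the 4 libraries rich in satellite counts it was 1.33 and called (edgeR adjusted p = 0.0290), in a fit that called 27.9% of all genes tested. Among Myc-knockin tumors the Rn7sk level separates the same pair, as do the satellite share, the total counts and the Myc level. These differences and the Jund level cannot be told apart.

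The JUN family summed to 49.9 ± 4.98 CPM per kilobase (SD, n = 4) in p53-driven and to 64.6 ± 29.7 (SD, n = 5) in Myc-knockin tumors. Jund took 36.8 ± 6.55% and 40.0 ± 18.2% of it, Jun 32.7 ± 6.70% and 27.5 ± 14.3%, and Junb 30.5 ± 11.7% and 32.5 ± 10.01%. For each of the 3 genes the group means differed by less than the SD within the groups. Single tumors were uneven, with Jund at 58.11% and Jun at 10.65% in M664, and Jund at 15.53% and Jun at 48.59% in M408.

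Egr1, a zinc finger factor induced through serum response factor and ETS partners, lies on the plus strand of chromosome 18 from 34859823 to 34864984. It had 60.8 CPM in F187, 49.2 in F325, 50.7 in F331 and 25.3 in F368, and 27.1 in M351, 198 in M408, 27.9 in M9, 28.3 in M624 and 26.5 in M664. Of the Myc-knockin tumors, 4 lay within 26.5 to 28.3 CPM, next to F368 and below the other 3 p53-driven tumors, and M408 lay above every other tumor. Egr1 had a log2 fold change of 0.42 (SE 0.65, 95% confidence interval -1.01 to 1.84, edgeR adjusted p = 0.717). Leaving out M408 turned it to -0.73 (edgeR adjusted p = 0.148), so its direction rests on that tumor.

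**Figure D3:**
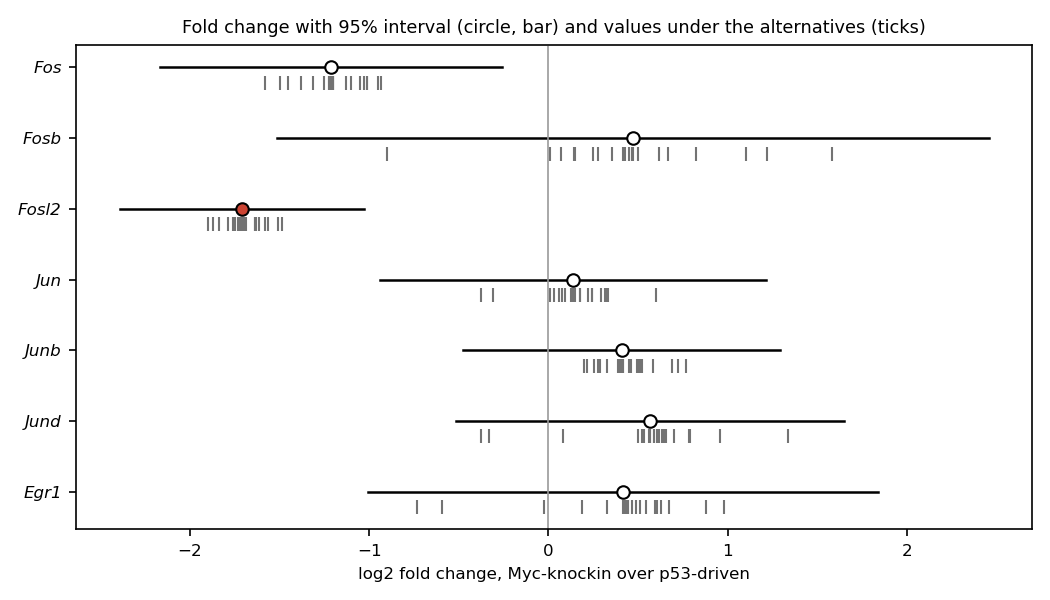
log2 fold change of Myc-knockin over p53-driven tumors for the 7 tested members (circles, red where called) with 95% confidence intervals (bars) and the values under the alternative settings (grey ticks). Fosl2 and Fos lie left of 0 with all their ticks, and the ticks of Fosb, Jun, Jund and Egr1 fall on both sides of 0.

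Ordered by mean CPM per kilobase in the p53-driven tumors, Fosl2 came first at 19.3 ± 5.87 (SD, n = 4), followed by Jund at 18.2 ± 2.56, Jun at 16.4 ± 4.23, Junb at 15.3 ± 6.44, Fos at 12.2 ± 5.70 and Egr1 at 10.4 ± 3.36. Each of these neighbours differed by less than the SDs of the pair. Fosb, at 0.731 ± 0.807, and Fosl1, at 0.221 ± 0.153, were far below. In the Myc-knockin tumors the JUN genes came first, with Jund at 26.6 ± 20.04 (SD, n = 5), Junb at 20.1 ± 9.28 and Jun at 17.9 ± 13.7. Egr1 followed at 13.7 ± 17.0, and its median over all 9 tumors was 6.31. Fosl2 came next at 5.87 ± 1.92, close to Fos at 5.20 ± 2.63, while Fosb at 1.03 ± 0.718 and Fosl1 at 1.00 ± 0.925 were again the lowest. By group mean Fosl2 was thus first of the 8 in p53-driven tumors, and below the JUN genes and Egr1 in Myc-knockin tumors. Tumor by tumor, Fosl2 was first in F187 and F331. Jun and Jund were above it in F325 and F368, as was Fos in F325. Each JUN gene was above Fosl2 in every Myc-knockin tumor. The Egr1 mean included 44.15 in M408, and in M664 Egr1 was below Fosl2.

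M408, a Myc-knockin tumor, held the highest value of the 9 tumors for Fosb, Jun and Egr1 among the 7 tested members, and for Fosl1. It was also the highest for 15 of 28 other immediate early genes and for 9 of 12 ERK feedback genes, against 1447 of 15365 genes tested, or 9.42%. Egr3, of the EGR family, had 53.3 CPM in M408 and 4.86 to 11.9 CPM in the rest. Dusp6, a phosphatase that switches off ERK, stood at 272 CPM there against 5.91 to 66.9 CPM elsewhere, and Spry4, an inhibitor of receptor signaling, at 90.1 CPM against 6.21 to 28.04 CPM. These 3 genes were named after their values were seen. Skeletal muscle markers summed to 6700 CPM in M408, the most of any Myc-knockin tumor, and to 13310 CPM in F325. Satellite genes took 23.2% of the counts in M408 and more in F187, M351 and M9. The part of muscle and satellite reads in the M408 levels was not tested.

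**Figure D4:**
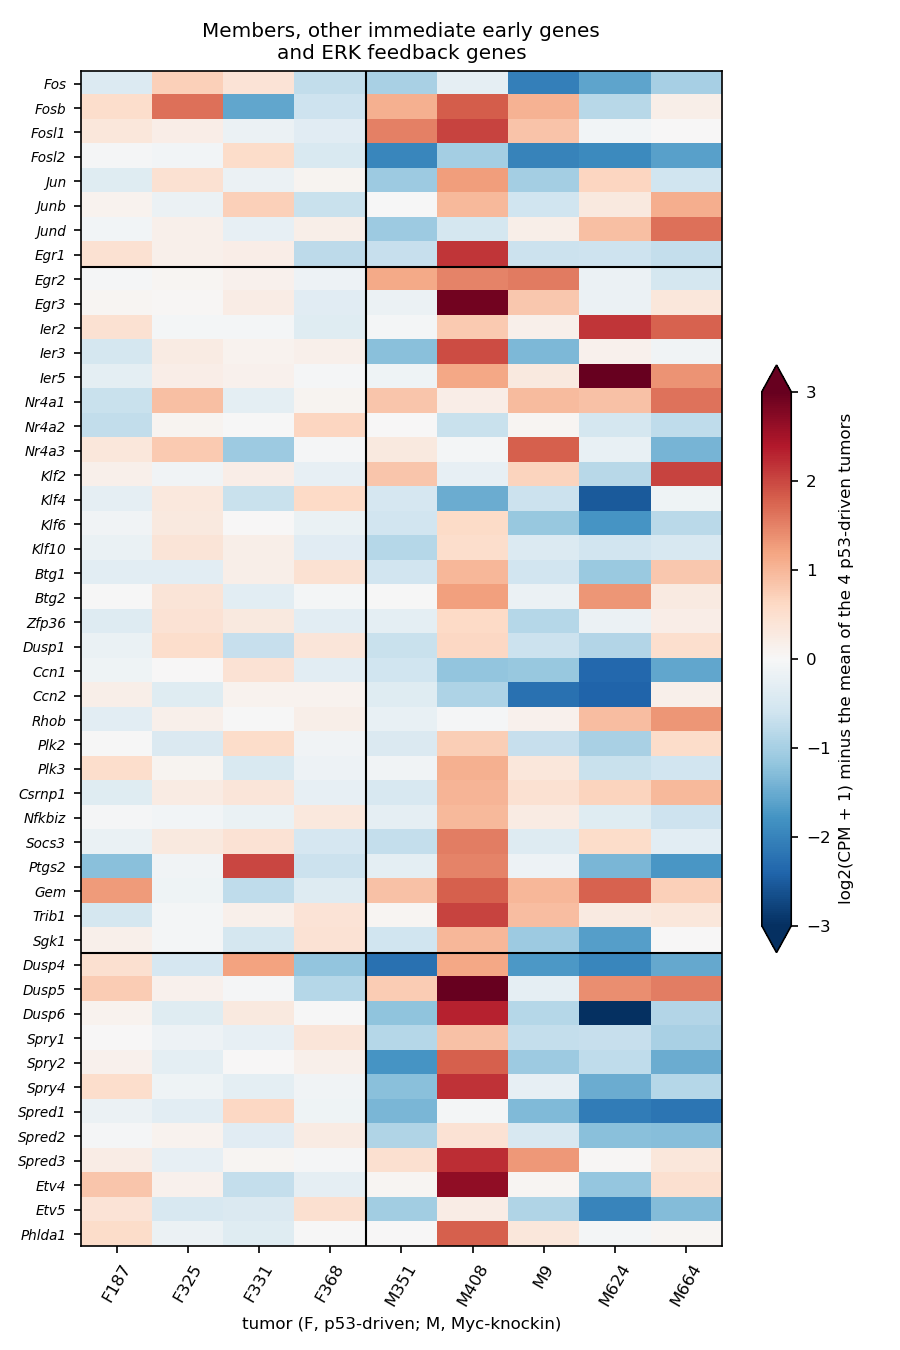
The 8 members (top block), 28 other immediate early genes (middle) and 12 ERK feedback genes (bottom) in each tumor, colored by log2(CPM + 1) minus the mean of the 4 p53-driven tumors (red, higher and blue, lower, with the color scale ending at 3 in either direction). The Fosl2 row is blue in all 5 Myc-knockin tumors, and the M408 column is red for most genes of the lower block.

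Lists of genes around AP-1 were tested in the same fit. Among AP-1 partner bZIP factors, 9 of 11 had enough counts, edgeR called 1 lower and 0 higher, and the median log2 fold change was 0.18. An unadjusted edgeR p under 0.05 was found for 2 of the 9, and DESeq2 and limma-voom called 2 each. Over the whole table edgeR called 5.27% of genes, and 4112 of 15365 had an unadjusted p under 0.05. DESeq2 called 4.86% of 47719 genes and limma-voom 10.8% of 15365. The counts of this list and of all gene and marker lists below stand beside these shares. The called gene was Jdp2, whose product dimerizes with JUN proteins, represses AP-1 targets and promotes osteoclast differentiation. It had 73.9 CPM in F187, 63.9 in F325, 130 in F331 and 54.6 in F368, against 11.7 in M351, 11.5 in M408, 13.5 in M9, 7.01 in M624 and 26.3 in M664. No Myc-knockin tumor reached the p53-driven range, and F331 was again the highest. Its log2 fold change was -2.51 (SE 0.41, edgeR adjusted p = 0.0195). The call held without M624 and M664 and was lost without the 4 libraries rich in satellite counts (log2 fold change -2.30, edgeR adjusted p = 0.0543). It was also lost without F325, F331 or F368, where the log2 fold change was between -2.68 and -2.17, and with scaling by library size alone (edgeR adjusted p = 0.0686). Maf, a large MAF factor, came next with 52.1 ± 13.4 CPM (SD, n = 5) against 105 ± 29.7 CPM (SD, n = 4), also without overlap but not called (edgeR adjusted p = 0.0670); it is named for its values.

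Of the other immediate early genes, 28 of 30 were tested by edgeR and 0 were called, with 17 log2 fold changes above 0, 11 below and a median of 0.21. An unadjusted p under 0.05 was found for 3, DESeq2 called 1 and limma-voom 2. The smallest unadjusted p values belonged to Ccn1 and Ier5. Ccn1, a matricellular protein gene that responds to serum and to YAP, had 58.6 ± 24.2 CPM (SD, n = 5) against 144 ± 33.2 CPM (SD, n = 4), with no overlap and a log2 fold change of -1.31 (SE 0.35, edgeR adjusted p = 0.0511). It was called in 6 of 22 alternatives, among them DESeq2 with an adjusted p of 0.00524. Ier5, an immediate early gene that acts on heat shock factor, had a log2 fold change of 1.702 (SE 0.60, edgeR adjusted p = 0.105), with 117 CPM in M624 and at most 34.5 CPM in the other 8 tumors, and it was 0.91 without M624. Without M408 the median of the list turned to -0.21.

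Upstream of the members, the list of 9 genes for serum response factor, the ternary complex factors and the cofactors of EGR proteins had 0 edgeR calls and a median log2 fold change of -0.44, with 7 values below 0. Of these, 2 had an unadjusted edgeR p under 0.05, and DESeq2 and limma-voom called 0. Mrtfb, a coactivator of serum response factor, had a value of -0.74 (SE 0.28, edgeR adjusted p = 0.123). Elk4, a ternary complex factor, had a value of -0.82 (SE 0.36, edgeR adjusted p = 0.175). The 12 MAP kinases and MAP kinase kinases had 0 edgeR calls as well and a median of 0.18, with 2 at an unadjusted p under 0.05, 1 called by DESeq2 and 0 by limma-voom. Map2k7, an activator of the JUN kinases, stood at 23.5 ± 9.49 CPM (SD, n = 5) against 10.6 ± 1.23 CPM (SD, n = 4) without overlap, a log2 fold change of 1.17 that was not called (SE 0.34, edgeR adjusted p = 0.0677). Mapk14, the p38 kinase, had a value of -0.79 (SE 0.31, edgeR adjusted p = 0.135).

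**Figure D5:**
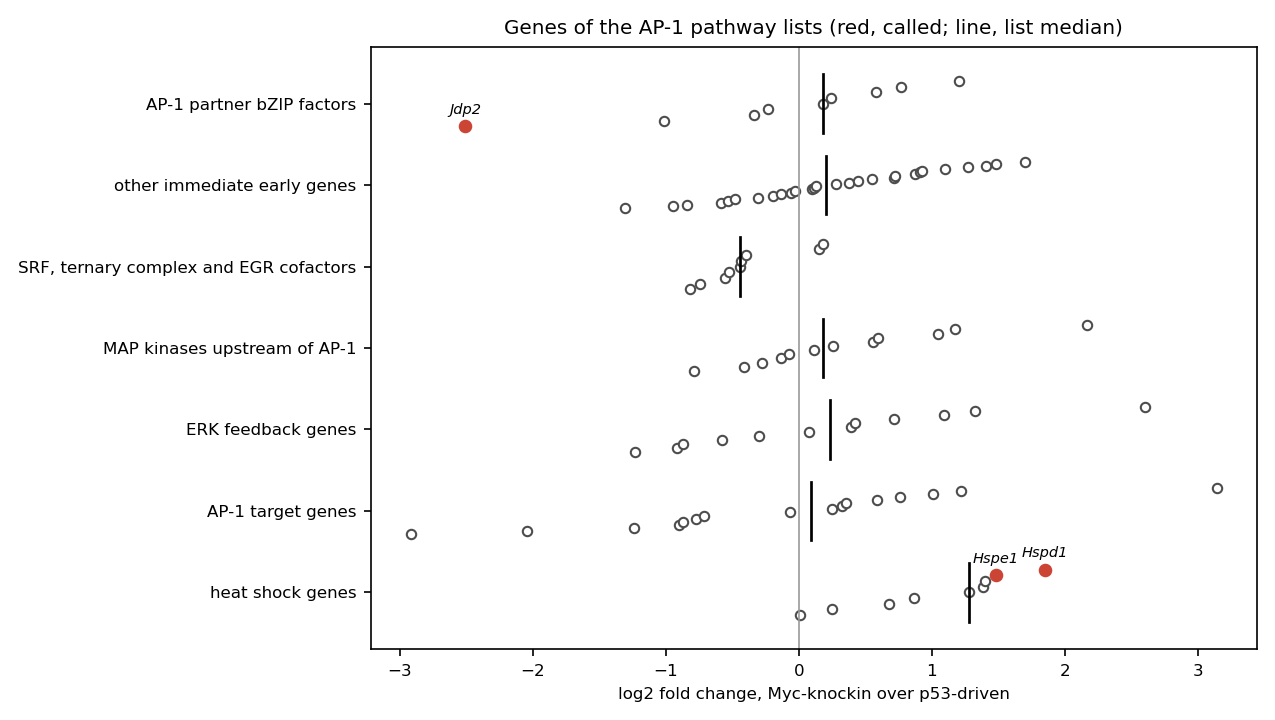
log2 fold change of Myc-knockin over p53-driven tumors for each tested gene of the 7 lists, 1 point a gene, with a black line at the list's median. Jdp2, Hspe1 and Hspd1 are the called genes (red), and the heat shock list is the one whose points all lie right of 0.

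Downstream, the 12 ERK feedback genes had 0 edgeR calls and a median of 0.23, which turned to -0.99 without M408, while 3 had an unadjusted edgeR p under 0.05 and DESeq2 and limma-voom called 1 each. Dusp5, a nuclear ERK phosphatase, had a log2 fold change of 2.60 (SE 0.91, edgeR adjusted p = 0.101), with 46.5 CPM in M408 and at most 8.12 CPM in the other 8 tumors, and it was 1.29 without M408. Spred1, an inhibitor of RAS signaling, had a value of -1.24 (SE 0.46, edgeR adjusted p = 0.116) that moved to -1.73 and was called without M408 (edgeR adjusted p = 0.0359). Of 18 known AP-1 target genes, 16 were tested by edgeR, 0 were called and the median was 0.09, with 6 at an unadjusted p under 0.05, 3 called by DESeq2 and 2 by limma-voom. That median turned to -0.51 without M408 and to -0.71 with at least 10 counts in every library. The matrix metalloproteinase gene Mmp13 had 350 ± 295 CPM (SD, n = 5) against 1441 ± 445 CPM (SD, n = 4) without overlap, and a log2 fold change of -2.04 (SE 0.67, edgeR adjusted p = 0.0870). Mmp9, which is also an osteoclast marker, had a value of -2.92 (SE 0.97, edgeR adjusted p = 0.0902) that moved to -4.67 and was called without M664, where it stood at 1628 CPM. Both metalloproteinase genes were called by DESeq2 and by limma-voom.

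The 9 heat shock genes, which respond to stress through another factor, had 2 calls higher, beside 2.26% of all genes tested, and a median log2 fold change of 1.28. The 2 were Hspd1 and Hspe1, the mitochondrial chaperonin pair. Hspd1 had 79.4 CPM in F187, 76.9 in F325, 111 in F331 and 80.0 in F368, against 254 in M351, 274 in M408, 103 in M9, 565 in M624 and 367.5 in M664. Of the Myc-knockin tumors, M9 alone lay within the p53-driven range. Hspd1 rose by 1.85 on the log2 scale (SE 0.44, edgeR adjusted p = 0.0411) and Hspe1 by 1.48 (SE 0.38, edgeR adjusted p = 0.0476). Without M624 and M664 neither passed, with values of 1.34 (edgeR adjusted p = 0.0667) and 1.14 (edgeR adjusted p = 0.0976). Hspd1 lost its call in 10 and Hspe1 in 12 of 22 alternatives.

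Osteoclast markers were lower in the Myc-knockin tumors along with Fosl2 and Jdp2. Of 11 osteoclast markers, 8 were called lower, and of all genes tested 3.00% were, a share that applies to each marker list here. The 11 markers summed to 193 to 2698 CPM in the Myc-knockin and to 3005 to 14840 CPM in the p53-driven tumors. All 11 had an unadjusted edgeR p under 0.05, and without F325, F331 or F368 the number called was 1. All 11 were highest in F331, which also held the highest Fosl2 and Jdp2 values, and Dcstamp was at 0 in M408. Of 12 macrophage markers, Cd68, Csf1r and Tyrobp were called lower, with sums of 380 to 1171 CPM and 899.8 to 1568 CPM in the same order. C1qa, C1qb and Aif1, of the same list, had log2 fold changes of 0.17, 0.56 and 0.06, not called by edgeR. Of 12 osteoblast markers, Bglap and Bglap2 were called lower, and the sums were 3484 to 40980 CPM against 62450 to 141000 CPM. Most of each sum came from Col1a1 and Col1a2, which were not called (edgeR adjusted p = 0.0682 and 0.0817). Log2 fold changes were below 0 for 11 of the 12 and 0.80 for Pth1r. The groups did not overlap for 6 of the osteoblast markers, beside 13.0% of all genes tested, with the lower level in the Myc-knockin tumors for 7.54%. Without F325, F331 or F368, 0 macrophage and 0 osteoblast markers were called lower by edgeR, and with library size alone 0 macrophage markers. The osteoblast factor Runx2 was present in every tumor, lowest in M624 at 9.18 CPM, whereas Bglap was at 0 in M408 and Bglap2 in M408 and M624. None of the 7 leukocyte, 7 endothelial, 6 chondrocyte and 7 skeletal muscle markers tested was called by edgeR, where 6, 1, 3 and 0 of them had an unadjusted p under 0.05. Among the leukocyte markers at that level, Ptprc, Cd52 and Laptm5 were lower in the Myc-knockin tumors and Coro1a, S100a8 and S100a9 higher. Among the endothelial and chondrocyte markers, Kdr and Col2a1 were lower and Col9a1 and Col10a1 higher. DESeq2 called 3 of the leukocyte markers and 1 of the chondrocyte markers, and limma-voom 1 of the leukocyte markers. The part of these cell types in the Fosl2 and Jdp2 differences was not tested.

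Across the 9 tumors Fos and Fosl2 varied together, with Pearson's r of 0.849 for log2 CPM and Spearman's rho of 0.833, and r of 0.738 after the mean of each genotype was taken off. Fosb and Fosl1 gave r of 0.755 and rho of 0.850, on levels near background in 3 libraries. Jun and Egr1 gave r of 0.650, which was 0.250 without M408. Fosl2 and Junb had r of 0.056 as measured and 0.837 within the genotypes, and Fosl2 and Egr1 0.375 and 0.799. Jund had r between -0.586 and 0.220 with the other members. These are descriptions over 9 points, out of 28 pairs, that share libraries, depth and scaling.

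The genes with the pattern most like each member were sought by Pearson's r of log2 CPM over the 9 tumors, among 9539 tested genes with a mean of at least 10 CPM. For Fosl2 they were Steap4 at 0.990, Wdr1 at 0.976 and Gm20056 at 0.973. For Fos they were Ccz1 at 0.960, Bnip2 at 0.952 and Ginm1 at 0.930. As the 3 highest of 9539 values over 9 tumors, these and the r below were picked to be high and were not tested. Jun was followed most closely by Lin7c at 0.953, Kpna1 at 0.929 and the immediate early gene Ier3 at 0.921. The genes nearest to Jund were Ptpa at 0.988, Pmm2 at 0.964 and Aurkaip1 at 0.963, and those nearest to Junb were Ppa1 at 0.902, Gprc5b at 0.892 and Sptssa at 0.884. Egr1 was followed by Rnf2 at 0.910, Rasa1 at 0.907 and Syne3 at 0.896. For the low genes Fosb and Fosl1 the nearest were Usp13 at 0.928 and St8sia1 at 0.952. With the genotype means taken off, Steap4, Ccz1, Lin7c, Ptpa, Rnf2 and Usp13 were again among the 3 nearest to their members, and Zfp36, an immediate early gene whose product destabilizes mRNAs, was among those of Fos at 0.925.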

How the data were processed

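RNA-Seq of 9 whole tumors was analysed from 1 table in which the authors deposited raw counts per gene, made by trimming with Trim Galore, mapping to mm10 with STAR and counting with featureCounts, as the labels list these tools; the strand setting is not given in the sources used here. No label names a column of the table. The genotype of 6 columns was read from the paper's supporting data, and that of M351, M9 and M664 from their initial alone. No column was tied to a numbered sample.

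Counts were tested in R 4.3.3 with edgeR 4.0.16 (TMM, filterByExpr with a minimum count of 10, glmQLFit and glmQLFTest), with no covariate, 4 p53-driven against 5 Myc-knockin tumors. Log2 CPM used a prior count of 2. Exon lengths and positions came from GENCODE M21 for the same build, with 55034 identifiers matched. The fit was tested on simulated data. Alternatives were other scalings and filters, DESeq2 1.42.0, and limma-voom 3.58.1 with a quality weight for each library. Others were subtraction of genomic background, removal of 12 satellite genes and omission of libraries.

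The members and gene lists were chosen with earlier results of these data known. From each list, called genes were named, up to 4, or else the 2 with the smallest unadjusted p, and any others are marked where they appear. Intervals of folds come from edgeR, and total counts, satellite reads included, ran from 2716322 to 17073285.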

Additional observations from a re-analysis of the deposited data

Results flagged for a closer look

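The Egr1 level of M408, 198 CPM, stood apart from the other 4 Myc-knockin tumors, which lay between 26.5 and 28.3 CPM: the gap to the next tumor was larger, relative to the range of the group, than Dixon's 95% critical value allows. Of 20 group tests of this kind, 1 gave such a result, and chance gives about 1 in 20. Without M408 the log2 fold change of Egr1 was -0.73 in place of 0.42 (edgeR adjusted p = 0.148 and 0.717).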

How the results depend on the processing

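Fosl2 kept its direction in all 22 alternatives and its call in 17, with log2 fold changes from -1.90 to -1.49. It was not called with library size alone (-1.73) or without M624 and M664 (-1.56), and over the single omissions its value ran from -1.90 to -1.49. Fos and Junb kept their direction and were called in none of the 21 and 22 alternatives run. Egr1 turned to -0.023 with limma-voom and to -0.59 without F187, M351, M408 and M9, and ran from -0.73 to 0.68 over the single omissions. Jun turned to -0.38 with limma-voom and ran from -0.31 to 0.33. Jund turned to -0.33 with limma-voom and to -0.38 without M624 and M664, and was called at 1.33 without F187, M351, M408 and M9, where Fosb turned to -0.90. Members called numbered 0 with library size alone and without M624 and M664, 2 of 7 without those 4 libraries, where 27.9% of all genes tested were called, and 0 to 1 over the single omissions.

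Of all genes tested 809 were called, 136 with library size alone, 2317 with DESeq2, 1663 with limma-voom, 494 with all genes of at least 1 count, 1316 with at least 10 counts in every library, 4595 of 16495 without the 4 libraries with satellite reads and 1926 without M351 and M9, an omission chosen after seeing the data. Over the single omissions calls ran from 5 to 1588. Of the calls, 43.0% were higher in Myc-knockin tumors, and 64.5% with upper-quartile scaling. The cause of these changes was not tested. Fos and Fosb could not be fitted with at least 10 counts in every library, and DESeq2 gave no adjusted p for Egr1. Depth limits Fosl1 and Fosb most. No paired analysis was possible because the table's columns carry no replicate numbers.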
